A study of Mus musculus with 109 samples.

Results

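The distal gene-rich block of mouse chromosome 8 is the stretch chr8:122000001-127000000 of the mm9 genome, which carries Irf8, Cox4i1 and many other genes. Its members were all HindIII sites of the deposited table between those positions, 1168 of the 39480 sites on chromosome 8 and of the 823352 sites in the whole table. They were described by how often 6 baits elsewhere on chromosome 8 captured them. The data are 4C-seq, in which nuclei are crosslinked and cut with HindIII, neighbouring ends are ligated, the product is cut with DpnII and circularised, and fragments joined to 1 chosen site, the bait, are amplified and sequenced. A site counted as captured when it held 1 read or more.

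All libraries came from C127, a mouse mammary tumour cell line grown in 10% fetal calf serum. Libraries of mitosis (M) followed a 4 h nocodazole block. Cells released from that block into G1 were taken at 0.5, 1, 2, 3 and 4 h, and G2 cells were taken after a 15 h release. G0 cells had been serum-starved for 5 days. There were 2 replicates at 0.5 h, 1 h and G0, and 1 library for M, 2 h, 3 h, 4 h and G2, where the 2 technical replicates of 2 h were summed. Baits B87 and B118 had no M library, so they had 10 libraries each and the other baits 11, 64 in all. The labels call the replicates biological but do not say which baits were read from the same culture. The p-values therefore measure the spread between these libraries.

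Chromosomes fold into domains, and domains of similar kind tend to touch each other over long distances. In mammals, gene-rich, GC-rich, early-replicating chromatin usually meets other such chromatin, and gene-poor chromatin meets other gene-poor chromatin. The contact frequency of a bait falls steeply with distance along the chromosome, so a distant block has to be read against what its distance alone would give. Observed over expected below is the number of captured sites divided by the number expected from the distance to the bait and from the number of HindIII sites, on the log2 scale. A value of 0 is the level of the distance curve, and a value of 1 is double that level.

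The baits are shown first because every value below depends on where they lie. Each sequence is the bait's primer as the labels give it, matched to chromosome 8 of mm9 on the plus strand, and the capitals mark the HindIII site at its end.
B7, chr8:7223950-7223970: tattaggacagacagAAGCTT
B26, chr8:26774313-26774332: ttgagtttgacgccAAGCTT
B44, chr8:44417335-44417354: ggtcatccctttagAAGCTT
B53, chr8:52961959-52961978: aaacatgtttggccAAGCTT
B87, chr8:87434064-87434081: gggcggagatggAAGCTT
B118, chr8:118459309-118459328: cctcatacagctggAAGCTT
The bait B87 is intronic to the lysosomal nuclease gene Dnase2a, and B26 is intronic to the histone methyltransferase gene Whsc1l1. B44 lies beside Zfp42, a gene of pluripotent cells, and B118 near Maf, a transcription factor gene. The 500 kb centred on the bait held 31 protein-coding gene starts at B87, 12 at B26, 6 at B44, 1 at B118 and 0 at both B53 and B7. The start of the block is 34.6 Mb from B87, 95.2 Mb from B26, 77.6 Mb from B44, 69.0 Mb from B53, 114.8 Mb from B7 and 3.54 Mb from B118.

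The block is gene-rich and GC-rich, and poor in HindIII sites. It holds 88 protein-coding gene starts, or 17.6 per Mb, against 8.40 per Mb over chromosome 8. Its GC content is 51.0%, against 42.4% over chromosome 8. It has 233.6 HindIII sites per Mb, against 306.7 over chromosome 8. Because a block with few sites offers fewer chances of capture, the expectation was set per site. Among the 1168 sites, 72, or 6.16%, were captured by none of the 64 libraries, and 345 were captured at least once by each of the 6 baits.

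In every one of the 64 libraries the labelled bait was the bait region with the most reads. Libraries held between 266006 and 12536212 reads. They captured between 687 and 23953 sites of chromosome 8 beyond 2 Mb of the bait, and at all 6 baits the libraries of 3 h and 4 h captured the fewest. At all 6 baits, 1 h replicate 2 and the first technical replicate of 2 h shared 64.9% to 96.7% of the smaller library's sites, 5.48 to 25.3 times what independent capture would give. The 2 technical replicates of 2 h, summed here as 1 library, shared only 8.57% to 27.0% with each other, 1.90 to 2.61 times that number. The other 368 pairs of libraries of 1 bait shared a median of 2.06 times that number. Some G0 libraries also shared many sites with 1 h replicate 2 and the first technical replicate of 2 h. G0 replicate 2 of B118 shared 81.5% to 83.6% of the smaller library's sites (14.7 to 15.1 times chance). G0 replicate 1 shared 50.1% to 50.7% at B53 (11.4 to 11.7 times) and 26.8% to 29.4% at B26 (5.66 to 5.87 times). At B44 it shared 61.3% to 61.6% (4.01 to 4.03 times). The other G0 libraries shared 1.67 to 3.90 times chance with the same 2. G0 libraries also shared sites with other libraries of 2 to 4 h. At B7 G0 replicate 2 shared 7.49 times chance with 3 h and 5.02 times with 4 h. G0 replicate 2 shared 5.08 times with 3 h at B44, and 5.51 times with the second technical replicate of 2 h at B26. Leaving out 1 h replicate 2 and 2 h does not remove the sharing with 3 h and 4 h. At B7, 0.5 h replicate 2 and 3 h shared 32.0% (14.6 times chance), and at the other baits 2.41 to 4.87 times chance. They belong to the first-hour and 2 to 4 h classes compared below, and no result leaves out both. The pair of 1 h replicate 2 and 2 h supplied 731 of the 1036 captures of block sites at B7 and 993 of the 2218 at B26, and 27.2% to 43.2% of those at the other baits. Block values, bait tests by bin, stage tests, gene counts, window ranks and site counts are therefore also given without 1 h replicate 2 and 2 h. Of the bait pairs, only B118 minus B26 is given that way, and the other pair values include these libraries.

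Bait B87 captured the block more often than distance predicts in all of its libraries. It captured 913 of the 1168 sites at 2 h, where 580.8 were expected, and 71 sites at 4 h, where 18.7 were expected. Its log2 observed over expected was 1.21 and 1.50 at 0.5 h, 0.69 and 0.80 at 1 h, 0.65 at 2 h, 1.55 at 3 h, 1.90 at 4 h, 0.54 in G2, and 0.51 and 0.55 in G0. All 10 libraries lay above 0, with a mean of 0.99 ± 0.51 (SD, n = 10). The 3 largest values belonged to the 3 libraries that captured the fewest sites beyond 2 Mb, which were 687 at 4 h, 1111 at 3 h and 2424 at 0.5 h replicate 2. Thinning each library to the same number of captured sites left the mean at 0.97. The draws came from sites already captured and keep the block's share of them. They therefore cannot show whether depth set these values, which was not tested.

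Bait B26 also stood above its distance curve, by less and not in every library. Its log2 observed over expected was 0.69 in M, 0.62 and 0.20 at 0.5 h, −0.07 and 0.64 at 1 h, 0.61 at 2 h, 0.19 at 3 h, 0.49 at 4 h, 0.01 in G2, and −0.31 and 0.29 in G0. The mean was 0.31 ± 0.33 (SD, n = 11), and 9 of 11 libraries were above 0. B26 lies 95.2 Mb from the block, and its median library captured 101 of the sites.

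Bait B53, in a gene desert, stood below its curve in all of its libraries. Its log2 observed over expected was −0.15 in M, −0.77 and −0.85 at 0.5 h, −0.11 and −0.27 at 1 h, −0.21 at 2 h, −1.78 at 3 h, −1.26 at 4 h, −0.51 in G2, and −0.09 and −0.21 in G0. The mean was −0.57 ± 0.55 (SD, n = 11), and 0 of 11 libraries were above 0. The lowest values, at 3 h and 4 h, rest on 8 and 9 captured sites. Without those libraries the mean was −0.35, still below 0.

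The other baits were closer to their curves. B7, in another desert, averaged −0.25 ± 0.18 (SD, n = 11), with 0 of 11 libraries above 0 and a median of 39 captured sites. B44 averaged −0.22 ± 0.33 (SD, n = 11), with 3 of 11 above 0. B118, the nearest bait, averaged −0.10 ± 0.34 (SD, n = 10), with 3 of 10 above 0. B118 captured a median of 904.5 of the 1168 sites, and in its 6 libraries of 1 h, 2 h, G2 and G0 the values lay between −0.03 and 0.01. Those 6 libraries captured 71.9% to 90.2% of the block sites, with 857.6 to 1063.8 expected. A count that cannot exceed 1168 leaves such values little room above 0.

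**Figure D1:**
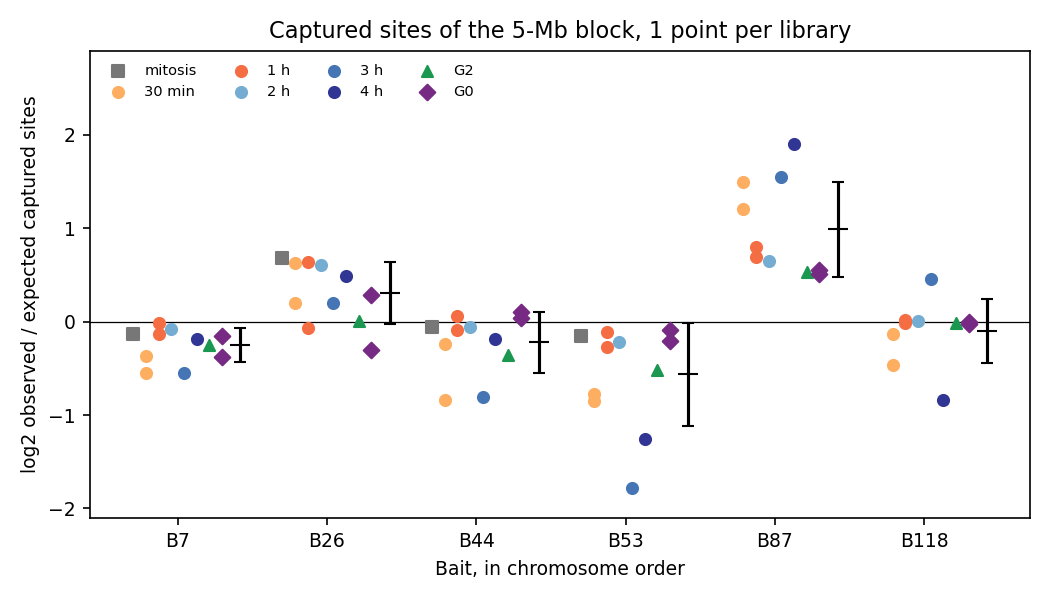
The vertical axis is the log2 ratio of observed to expected captured sites in the block and the horizontal axis is the bait in chromosome order, with 1 point per library coloured by its label and a bar for the mean and SD. The 10 libraries of B87 sit between 0.51 and 1.90, and the 11 libraries of B53 sit between −1.78 and −0.09.

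The order of the baits recurred within the labels. B87 was the highest bait in 10 of the 11 labels and was not read in the remaining one, M. B53 was the lowest in 9 of 11, with B26 lowest in G0 replicate 1 and B7 lowest in G0 replicate 2. Without 1 h replicate 2 and 2 h, B87 averaged 1.05, B26 0.24, B118 −0.13, B44 −0.27, B7 −0.29 and B53 −0.64.

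Baits were compared in pairs with edgeR's quasi-likelihood test on captured sites, with the expected number as offset, in 5-Mb windows of which the block is 1. Over all windows and pairs 49.3% of tests passed a Benjamini-Hochberg adjusted p of 0.05, 111 of 225. In the block 9 of the 15 pairs passed. B87 was above B53 by 1.39 ± 0.16 (SE, adjusted p = 2.03e-12, edgeR) on the log2 scale. B87 was above B7 by 1.24, above B44 by 1.16 and above B26 by 0.63 (adjusted p = 0.000401 for the last, edgeR). The difference B118 minus B87 was −1.04 ± 0.15 (SE, adjusted p = 2.71e-09, edgeR). Captured sites cannot exceed the number of sites in a window, which limits the deep libraries of B118 and B87.

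B26 was the other bait that stood apart from several. B53 minus B26 was −0.75 ± 0.16 (SE, adjusted p = 4.37e-05, edgeR), B26 minus B7 was 0.60, and B44 minus B26 was −0.53. B118 minus B26 was −0.41 (adjusted p = 0.0194, edgeR). That last call was lost without 1 h replicate 2 (adjusted p = 0.0667), without 2 h (0.0520), without 0.5 h replicate 1 (0.0850) and without both 1 h replicate 2 and 2 h (0.116). With reads in place of captured sites B44 minus B26 did not pass (adjusted p = 0.0631, edgeR), and with a straight line for the expectation B26 minus B7 did not (0.0926). The 6 pairs among B7, B44, B53 and B118 did not pass. The largest of these was B118 minus B53, at 0.34 ± 0.16 (SE, adjusted p = 0.0601, edgeR), which passed with DESeq2 (adjusted p = 0.0305), with an expectation fitted without the block (0.0296), with occupancy in limma (0.0123), without G0 replicate 1 (0.0479) and without 4 h (0.0414). The smallest was B44 minus B7, at 0.07 ± 0.17 (SE, adjusted p = 0.760, edgeR).

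The block was then split into its 10 bins of 500 kb, and each bait was set against the mean of the other 5. Of all bins and baits tested, 34.3% passed in either direction, and 32 of the 60 bin and bait combinations of the block did. B87 was higher in 10 of 10 bins, where 28.9% of its bins on the chromosome were higher. B53 was lower in 10 of 10, against 23.4% of its bins. B26 was higher in 6 of 10, against 25.4%. B7 was lower in 2 of 10, against 13.7%. B44 was lower in 2, against 5.08%, and B118 was lower in 2, against 3.05%. Neighbouring bins of 1 library are not independent.

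The count for B87 was the steady one. It stayed at 10 of 10 without any single label and without 1 h replicate 2 and 2 h together. The count for B53 was 5 without 1 h replicate 2, 5 without 2 h and 2 without both. The count for B26 was 3, 3 and 1 under the same omissions. With reads in place of captured sites the counts were 10 for B87, 3 for B53 and 0 for B26. Across the block 21 combinations passed without 1 h replicate 2, and 14 without both.

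From the start of the block, the first bin holds Mbtps1, which encodes the site-1 protease, Cotl1, an actin-binding protein gene, and Usp10, a deubiquitinase gene. There B87 averaged 1.14 ± 0.75 (SD, n = 10), B26 0.74 ± 0.49 (SD, n = 11) and B53 −0.39 ± 0.49 (SD, n = 11). For B26 this was its highest bin of the 10, with 10 of 11 libraries above 0. The next bin, with Crispld2 and the palmitoyltransferase gene Zdhhc7, averaged 1.14 at B87, 0.30 at B26 and −0.45 at B53.

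The next bin carries Cox4i1, a subunit of cytochrome c oxidase, Irf8, a transcription factor of myeloid and B cell development, Gins2, a subunit of the replicative helicase, and Gse1. B87 averaged 1.13 ± 0.60 (SD, n = 10) there, and its fitted difference from the other baits, 1.04 ± 0.14 (SE, adjusted p = 7.96e-08, edgeR), was the largest of the 10. B26 averaged 0.00 ± 0.70 (SD, n = 11) with 6 of 11 libraries above 0, and summed over libraries had 214 captures against 173.1 expected. B53 averaged −0.93 ± 1.06 (SD, n = 11) with 0 of 11 above 0, the only bin of the 10 with that count at B53.

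The fourth bin is the one with the fewest gene starts, 3: the forkhead transcription factor genes Foxf1a and Foxc2, and Mthfsd. It was the lowest of the 10 bins by mean at B87, B7, B44, B53 and B118. B87 averaged 0.64 ± 0.36 (SD, n = 10), still above 0 in 10 of 10 libraries. B53 averaged −1.08 ± 1.23 (SD, n = 11), B7 −0.93 ± 1.01 (SD, n = 11), B44 −0.56 ± 1.23 (SD, n = 11) and B118 −0.36 ± 0.51 (SD, n = 10). The spread between libraries was as large as these means. Summed over libraries, the fourth bin had 459 captures against 288.8 expected at B87, and the last bin 476 against 308.9. At B7 it had 94 against 106.4, and the sixth bin 86 against 113.8. At B44 it had 179 against 207.2, and the seventh bin 201 against 260.3. By these sums it was the lowest bin only at B53 and B118. By the fitted difference from the other baits it was the lowest at no bait.

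The fifth to seventh bins hold Map1lc3b of autophagosomes, the amino acid transporter gene Slc7a5, the GATA cofactor gene Zfpm1, Cyba of the NADPH oxidase, Mvd of the mevalonate pathway, the replication licensing gene Cdt1 and the purine salvage gene Aprt. B87 averaged 0.90, 0.85 and 0.77 in them, and B53 −0.70, −0.46 and −0.69. B26 averaged 0.25, 0.51 and 0.15, and the middle of these bins had its lowest adjusted p, with a fitted difference of 0.63 ± 0.15 (SE, adjusted p = 0.000563, edgeR).

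The eighth bin has the most gene starts, 18, among them Ankrd11, a chromatin regulator gene, Fanca of DNA repair, Mc1r, a melanocortin receptor gene, and Tubb3, a tubulin gene. B87 averaged 0.85 ± 0.49 (SD, n = 10), and it was the only bin of the 10 in which a B87 library was below 0, at −0.26. B7 averaged 0.20 ± 0.62 (SD, n = 11), its only bin above 0 by mean. Summed over libraries, B7 had 109 captures there against 118.3 expected, and 120 against 111.6 in the first bin. The last 2 bins hold Gas8, Acta1, Nup133, Abcb10 and Galnt2. There B87 averaged 0.95 and 0.73, B26 −0.19 and 0.14, and B53 −0.61 and −0.55. Summed over libraries, B26 had 170 captures against 139.8 expected in the first of them, above its curve. The means weigh each library alike, so libraries with few captures can set their sign. Across the 10 bins the Spearman correlation of bin mean with gene starts was 0.24 at B87 and 0.81 at B118 (n = 10 bins, which share libraries and neighbours).

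**Figure D2:**
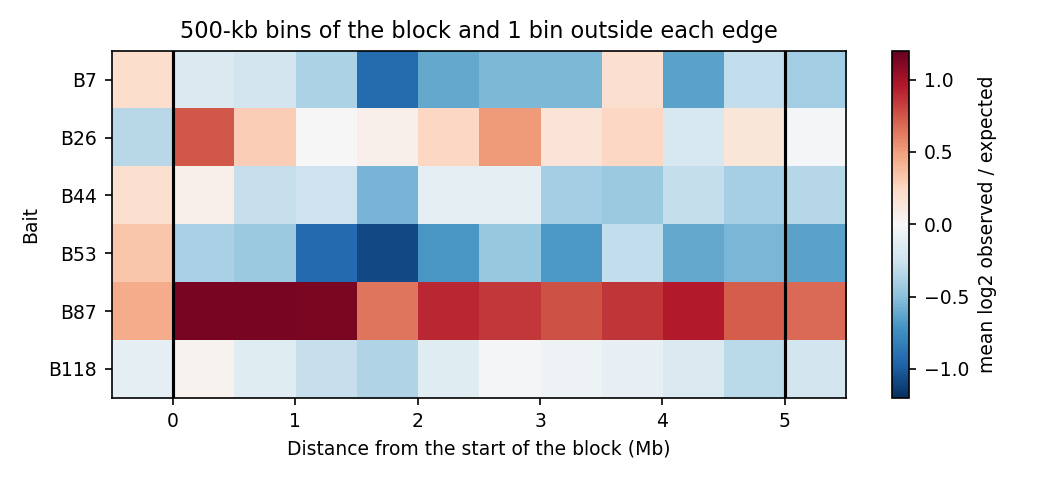
Rows are baits, columns are 500-kb bins by distance from the start of the block in Mb, and colour is the mean log2 ratio of observed to expected captured sites over libraries. Black lines mark the edges of the block. The B87 row is above 0 in all 10 bins, from 0.64 to 1.14, and the B53 row is below 0 in all 10.

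The edges of the block did not look alike. In the first bin of the block B87 averaged 1.14, against 0.44 in the bin just before it. B53 averaged −0.39 in the first bin of the block, against 0.33 just before it. B26 averaged 0.74 in the first bin, against −0.33 just before it. All 3 baits thus had different means on either side of that edge. At the far edge the means were closer: B87 averaged 0.73 in the last bin of the block, against 0.68 just beyond it, and B53 averaged −0.55 in the last bin, against −0.64 just beyond it. These bin to bin steps are descriptions and were not tested.

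Set against other 5-Mb windows, the block was the highest of 24 windows by mean for B87 and the lowest of 24 for B53. For B26 it ranked 3 of 24 from the top, for B118 it ranked 17 of 24, for B7 21 of 24 and for B44 22 of 25. B87 averaged 0.99 in the block, 0.64 in the gene-rich window around Ctcf (chr8:107000001-112000000), 0.24 in the adjacent window (chr8:117000001-122000000) and 0.46 beyond the block to the chromosome end. The block was above those windows in 10, 9 and 9 of the 10 libraries of B87. B53 averaged −0.57 in the block and 0.33 in the adjacent window, which was its highest window, and the block was lower in 11 of 11 libraries. The adjacent window holds 4.20 gene starts per Mb, the Ctcf window 20 and the stretch beyond the block 7.17, against 17.6 in the block. B53 averaged −0.06 in the Ctcf window and −0.37 beyond the block. Leaving out 1 h replicate 2 and 2 h, the block ranked 1 of 24 for B87, 3 of 24 for B26, 18 of 24 for B118, 22 of 24 for B7, 23 of 25 for B44 and 24 of 24 for B53. No test was run between windows.

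**Figure D3:**
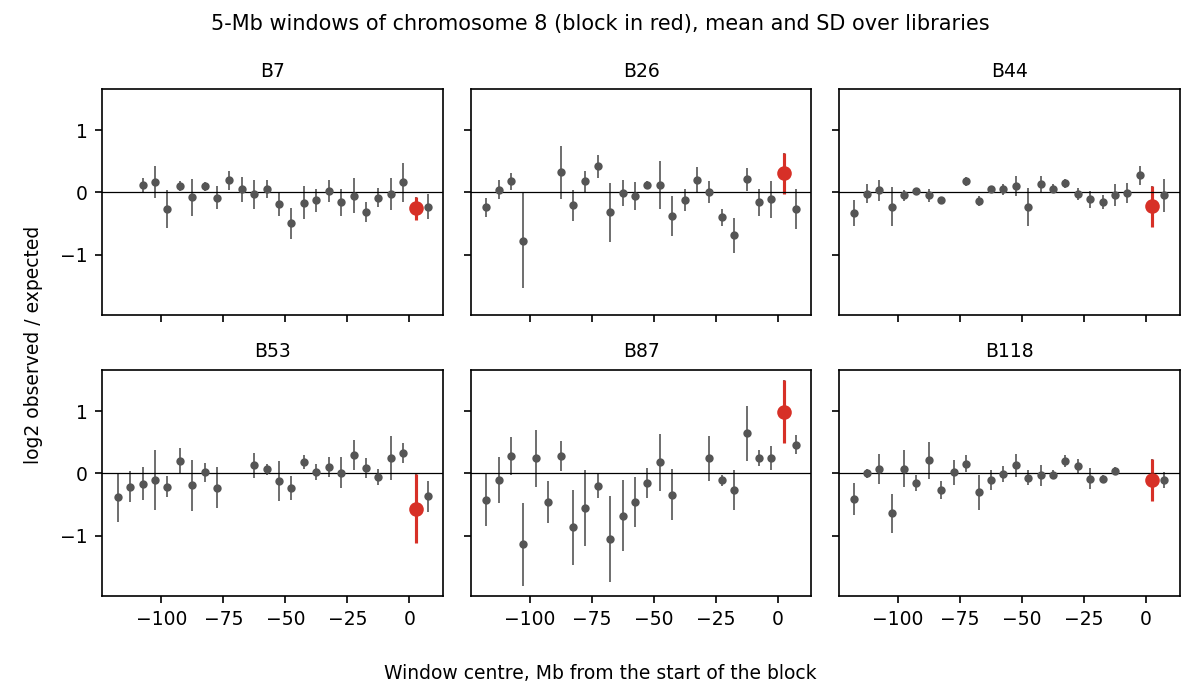
Each panel is a bait. Points are 5-Mb windows of chromosome 8 by the distance of their centre from the start of the block in Mb, and the vertical axis is the mean log2 ratio of observed to expected captured sites with its SD over libraries. The block, in red, is the highest point for B87 (0.99) and the lowest for B53 (−0.57).

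For B87 and B118 a window at the same distance on the other side of the bait gives a comparison that needs no distance curve. It matches distance but not composition. The mirror window of B87 has 39.8% GC and 1622 sites, and lies just before the gene-desert bait B53. That of B118 has 44.8% GC and 1445 sites, against 51.0% and 1168 in the block. B87 captured a median of 56.2% of sites in the block and 22.9% in its mirror window (chr8:47868128-52868127). The log2 ratio of block to mirror window, per site, was 1.67 ± 1.05 (SD, n = 10) and above 0 in 10 of 10 libraries. B118 captured a median of 77.4% of sites in the block and 80.1% in its mirror window (chr8:109918618-114918617). That log2 ratio was −0.22 ± 0.50 (SD, n = 10), above 0 in 3 of 10 libraries. Without 1 h replicate 2 and 2 h the ratios were 1.79 ± 1.15 at B87 and −0.27 ± 0.55 at B118 (SD, n = 8).

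Genes were read over the gene body and 25 kb on each side, summed over the libraries of a bait, so deep libraries weigh more and neighbouring genes share sites. Of 51 listed genes, 41 lie in the block and 39 of those have 10 sites or more. At B87 all 39 were above the distance curve, with a median of 0.74. At B26 36 of 39 were above it, at B118 18, at B44 13, at B7 8 and at B53 6. Without 1 h replicate 2 and 2 h the counts were 39 at B87, 34 at B26, 18 at B118, 14 at B44, 10 at B7 and 7 at B53. By list, B87 was above it in 7 of 7 transcription and chromatin genes, 5 of 5 replication and repair genes, 10 of 10 metabolism and transport genes and 15 of 15 membrane, cytoskeleton and signalling genes. These counts follow the bins and carry no test of their own.

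The genes the block is named for differed from each other in detail. Cox4i1 (chr8:123192190-123198109, plus strand, 12 sites) had 66 captures over the 10 libraries of B87, against 32.5 expected, a log2 ratio of 1.02 that was above 0 in 10 of 10 libraries. Irf8 (chr8:123260258-123280594, plus strand, 29 sites) had a log2 ratio of 0.58, with 78.5 captures expected, and was above 0 in 8 of 10. At B26 Irf8 was the lowest of the 39 genes, with 31 captures against 38.9 expected, a log2 ratio of −0.33. At B53 Cox4i1 had 14 captures against 21.7 expected and Irf8 48 against 52.6. With 1 h replicate 2 and 2 h left out, Irf8 remained the lowest of the 39 at B26, at −0.34, and Cox4i1 became the lowest at B53, with 4 captures against 12.6 expected.

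The highest genes at B87 were Chmp1a, of the ESCRT-III membrane scission complex, at 1.17, Zcchc14 at 1.13, Gas8, of the motile cilium, at 1.12 and Hsdl1 at 1.11. Its lowest were Urb2 at 0.48, Foxc2 at 0.37 and Acsf3, a mitochondrial acyl-CoA synthetase gene, at 0.36. B26 was highest at Hsdl1, 1.61 and above 0 in 11 of 11 libraries, then at Mvd, 1.21, at Fam38a, which encodes the mechanosensitive channel Piezo1, 1.13, and at Cyba, 0.98. The lowest genes at B53 were Def8 at −1.21, Cdh15, encoding M-cadherin, at −1.07 and Abcb10, a mitochondrial transporter gene, at −0.98. Def8 was also the lowest at B44, where 10 captures stood against 37.9 expected. At B7 the lowest was Slc7a5, with 3 captures against 14.8 expected. After the same omission Def8 remained the lowest at B44, with 8 captures against 25.8 expected, Slc7a5 the lowest at B7, with 0 against 4.70, and Hsdl1 the highest at B26, at 1.76, while Foxc2, at 0.39, was the lowest at B87.

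At the level of single sites the block was captured thinly by the far baits and densely by the near ones. B118 captured 8 sites in every one of its 10 libraries and 973 sites in 5 or more, while B87 captured 1 site in all 10 and 705 in 5 or more. B44 captured 105 sites in 5 or more of 11 libraries, B26 64, B53 33 and B7 3. No site was captured in every library of B7, B26, B44 or B53. B7 left 593 of the 1168 sites, 50.8%, uncaptured in all of its libraries. In the libraries other than 1 h replicate 2 and 2 h, the sites captured in 5 or more libraries were 745 at B118, 210 at B87, 12 at B44, 5 at B26, 2 at B53 and 1 at B7, and B7 left 920 sites, 78.8%, uncaptured.

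The sites captured in the most libraries of B87, B26 and B53 are shown with 60 bases on each side, from mm9 on the plus strand, to show what such a site is. The capitals mark the HindIII site itself.
Ankrd11 intron, chr8:125452445-125452570: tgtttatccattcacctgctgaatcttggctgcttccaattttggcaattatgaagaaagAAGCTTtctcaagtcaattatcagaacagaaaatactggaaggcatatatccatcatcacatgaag
Zcchc14 intron, chr8:124153494-124153619: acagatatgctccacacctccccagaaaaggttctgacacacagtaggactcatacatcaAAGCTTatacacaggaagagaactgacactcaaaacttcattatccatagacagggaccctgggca
Intergenic near Cotl1, chr8:122375026-122375151: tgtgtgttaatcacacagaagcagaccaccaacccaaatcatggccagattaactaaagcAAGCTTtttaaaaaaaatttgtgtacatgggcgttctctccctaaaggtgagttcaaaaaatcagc
The Ankrd11 site was captured in 10 of 10 libraries of B87, with 2128 reads or 0.601% of that bait's block reads. The Zcchc14 site was captured in 7 of 11 libraries of B26. The intergenic site, 10607 bases from Cotl1, was captured in 7 of 11 libraries of B53 and in 10 of 10 of B118. These 3 sites were each captured by 27, 27 and 32 of the 64 libraries, so none was seen by 1 bait alone. The 126 bases around them had 36.5%, 45.2% and 38.9% GC, all below the 51.0% of the block. They were picked for their counts, which are a description.

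Reads in the block were set against all reads far from the bait. For B87, block reads per 1000 reads beyond 2 Mb of the bait were 78.0 and 86.7 at 0.5 h, 37.6 and 68.4 at 1 h, 79.6 at 2 h, 82.3 at 3 h, 92.5 at 4 h, 39.7 in G2, and 14.1 and 19.4 in G0. Both G0 libraries were the lowest of the 10. For B26 the same quantity was 4.16 in M, 21.1 and 36.1 at 0.5 h, 2.18 and 16.9 at 1 h, 19.5 at 2 h, 24.8 at 3 h, 39.4 at 4 h, 3.93 in G2, and 0.968 and 1.01 in G0. G0 was again lowest, with 1 h replicate 1, G2 and M also low. Both G0 libraries were the lowest at B7 too, at 0.865 and 0.742, and at B44, at 0.797 and 1.61. At B53 G0 replicate 2 was the lowest, at 1.89, while G0 replicate 1 had 2.58. A low G0 value was thus not particular to B87 and B26.

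B118 ran the other way. It had 61.5 and 24.1 per 1000 at 0.5 h, 103 and 105 at 1 h, 105 at 2 h, 26.6 at 3 h, 30.0 at 4 h, 101 in G2, and 126.8 and 119.6 in G0. Both G0 libraries were its highest. The low values of B118, at 0.5 h, 3 h and 4 h, belong to libraries with few reads beyond 2 Mb, from 138783 at 4 h to 1013765 at 0.5 h replicate 1. The part of depth in these differences was not tested.

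**Figure D4:**
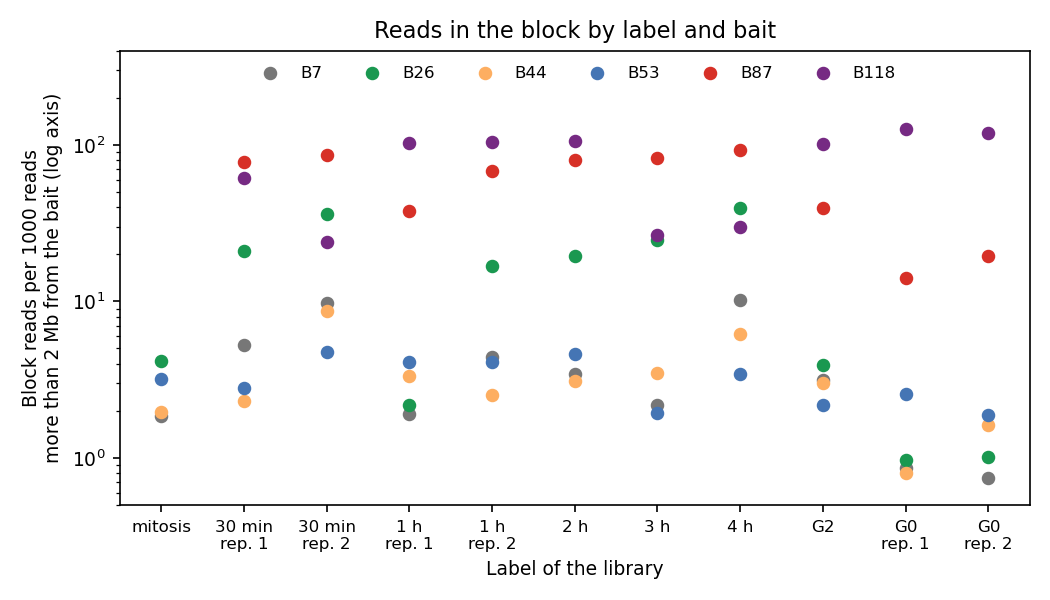
The vertical axis is reads in the block per 1000 reads more than 2 Mb from the bait, on a log axis, and the horizontal axis is the library's label, with 1 point per library coloured by bait. For B26 the G0 points lie at 0.968 and 1.01, against 19.5 to 39.4 at 2 to 4 h.

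G0 was compared with 2 to 4 h in reads per 500-kb bin, for each bait, with edgeR's quasi-likelihood test and TMM normalisation. This test used no distance expectation. No bin passed at an adjusted p of 0.05, 0 of 1452 (0% called), and the lowest adjusted p in the block was 0.0629. At an unadjusted p under 0.05 there were 451 of the 1452 bins (31.1%), and 18 of the 60 of the block (30%), a share close to that of all bins. Those were 10 of 10 bins of B26, with a median log2 fold change of −4.01 over the bins of the block against −0.25 over all of its bins, 7 of 10 of B87, with a median of −1.87 against 0.18, and 1 of B44. At B44 the block median was −0.86 against −0.46 over all of its bins, with 0 of 10 above 0, and at B53 it was 0.11 against 0.14, with 5 of 10 above 0. At B118 it was 1.69 against −0.27, with none of 10 below 0.05 before adjustment.

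That count of 0 depended on the settings. With DESeq2 20 of the 59 tested bins of the block passed (33.9%), against 31.1% of all bins. When captured sites replaced reads 11 of 60 passed (18.3%), against 15.3%, and with library totals in place of TMM 4 of 60 (6.67%), against 4.48%. With 1-Mb bins 9 of 30 passed (30%), against 23.3%. Leaving out 2 h gave 14 of 60 (23.3%), against 16.4%, and leaving out 1 h replicate 1 gave 12 of 60 (20%), against 10.1%. Leaving out both 1 h replicate 2 and 2 h gave 4 of 60 (6.67%), against 7.85%. No difference between these shares was tested. The count was 0 without either G0 replicate. G0 replicate 1 of B53, B26 and B44 and G0 replicate 2 of B118 share sites with 1 h replicate 2 and 2 h. The comparison rests on 2 libraries in G0 and 3 at 2 to 4 h, of which 3 h and 4 h are the thinnest.

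The summary by captured sites, G0 minus 2 to 4 h, was −0.84 at B87 (0.53 in G0, 1.37 at 2 to 4 h) and −0.44 at B26 (−0.01 in G0, 0.43 at 2 to 4 h). It was 0.94 at B53 (−0.15 in G0, −1.08 at 2 to 4 h) and 0.42 at B44 (0.07 in G0, −0.35 at 2 to 4 h). By reads per bin, with no distance expectation, the block median had the opposite sign at B44, −0.86. At B53 it was 0.11, close to the 0.14 of all of its bins. Set against distance, log2 observed over expected reads at B44 were 0.32 and −0.03 in G0, and 0.07, −1.33 and −0.58 at 2, 3 and 4 h. At B53 they were −0.21 and −0.36 in G0, and −0.60, −2.63 and −2.03 at 2, 3 and 4 h. At B118 the difference by captured sites was 0.11, −0.25 without 4 h and 0.40 without 3 h. In G0 the baits thus lay closer together, with an SD over the 6 baits of 0.28 and 0.33, against 0.38 at 2 h, 1.15 at 3 h and 1.11 at 4 h. The SD was also low at 1 h replicate 1, at 0.31, and G2, at 0.37, and the widest labels are the thinnest libraries.

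The 2 to 4 h libraries were also compared with the first hour, 0.5 and 1 h. By reads per bin and bait 0 of 1452 bins passed (0% called) with edgeR, and 28 were below an unadjusted p of 0.05, 1 of them in the block. With DESeq2 0 bins of the block passed as well, and 0 without 1 h replicate 2 and 2 h. The block value moved by 0.32 at B87 (1.37 at 2 to 4 h, 1.05 in the first hour), by 0.08 at B26 and by −0.58 at B53 (−1.08 at 2 to 4 h, −0.50 in the first hour), with the libraries of both classes overlapping at all 6 baits.

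Captured sites summed over the baits of 1 label gave 1 value per label. For the block these values were 0.11 in M, 0.25 and 0.03 at 0.5 h, 0.17 and 0.18 at 1 h, 0.18 at 2 h, 0.35 at 3 h, −0.19 at 4 h, 0.18 in G2, and 0.00 and 0.13 in G0. The G0 values lay within the range of the others. By edgeR 0 of 251 bins (0% called) passed for G0 against 2 to 4 h, where 18 were below an unadjusted p of 0.05 and 0 of them in the block, and 0 of 251 passed for 2 to 4 h against the first hour, where 0 were below it. Without 1 h replicate 2 and 2 h, 0 bins of the block passed in either comparison. The sum over baits is weighted by B118 and B87, which captured the most sites. The M value lacks both of them and rests on 4 baits.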

How the data were processed

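The deposited table holds raw read counts per HindIII site, 109 columns, made by the authors from 50 bp reads, aligned with BWA 0.5.9 to mm9 per the submitters' processing notes. How sites were filtered is not given in the sources used here. Its sites on chromosome 8 are the AAGCTT sites of the mm9 sequence, 39480 of 39480. From it 70 columns of the 6 chromosome 8 baits were used, and 39 columns of other baits or of 1.5 h were not used. Technical replicates of 2 h were summed. Gene positions were taken from GENCODE, on mm9.

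Expected captured sites per library came from a lowess (span 0.5, statsmodels 0.14.6) of log2 capture rate per site on log10 distance, over 500-kb bins with 30 sites or more and beyond 2 Mb of the bait, scaled to the observed total, with a pseudocount of 0.5. Tests used edgeR 4.0.16 in R 4.3.3, with DESeq2 1.42.0 and limma 3.58.1 as alternatives. The bait fits had bait and labelled stage as terms and the p-values were adjusted over all windows or bins and contrasts. Windows within 2 Mb of any bait were left out of all pairs, because 1 shared fit needs every bait, where the plan left out only those near a bait of the pair. Scripts were tested on simulated data. Gene names follow lists of block genes by role, with the 4 highest and 3 lowest per bait among genes with 10 sites. The members and lists were chosen with earlier results of these data known. Reads without molecular identifiers are not independent molecules. In 53 of 156 pairs of same-label libraries of different baits the deviations correlated above 0.1.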

Additional observations from a re-analysis of the deposited data

Results flagged for a closer look

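By captured sites, the difference between G0 and 2 to 4 h in the block had opposite signs at different baits. At each bait named, both G0 libraries lay on the same side of the mean of 2 to 4 h. The differences between baits were not tested. In log2 observed over expected, the change of G0 minus 2 to 4 h at B44 exceeded that at B26 by 0.862, at B53 it exceeded B26 by 1.38 and at B118 it exceeded B26 by 0.549. The change at B87 less that at B44 was −1.26, and less that at B53 −1.77. The change at B118 exceeded that at B87 by 0.945. The sign at B118 depended on single libraries: the change was 0.11 with all of them, −0.25 without 4 h and 0.40 without 3 h. Without 4 h its excess was 0.16 over B26 and 0.32 over B87. The 3 h library of B118 stood at 0.46 by captured sites and at −0.61 when a site needed 5 reads or more. Leaving out any 1 of the 5 libraries, the excess over B26 was 0.60 to 1.13 at B44 and 1.02 to 1.74 at B53.

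Read fold changes, which were not set against distance, gave another picture at B44 and B53. The median log2 fold change of G0 over 2 to 4 h in the bins of the block was −0.86 at B44, against −0.46 over all of its bins, and 0.11 at B53, against 0.14. It was −4.01 at B26, −1.87 at B87 and 1.69 at B118. When reads were divided by their distance expectation, both G0 libraries of B53 lay above its 2 h, 3 h and 4 h libraries. At B44 both lay above 3 h and 4 h, and the 2 h library lay between them. The 3 h and 4 h libraries captured the fewest sites.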

How the results depend on the processing

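The block was above its expectation at B87 and below it at B53 under every alternative tried, from 0.61 (expected without number of sites) to 1.37 (straight line) at B87 and from −0.92 to −0.35 at B53. Values that moved by more than 1 SD were −0.46 (without number of sites), −0.065 (straight line) and −0.49 (thinned) at B7, −0.51 (reads) and −0.50 (straight line) at B118, and 1.67 for B87 against its mirror window. Leaving out 1 library gave −0.28 to −0.22 at B7, 0.27 to 0.37 at B26, −0.25 to −0.16 at B44, −0.61 to −0.44 at B53, 0.89 to 1.04 at B87 and −0.16 to −0.02 at B118.

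Pairs called in the block ranged from 8 to 11. B118 minus B7 was reversed under a straight line, at −0.43 (adjusted p = 0.0422, edgeR), where the main value was 0.19. Bins called for each bait against the others were 13 with reads and 14 without 1 h replicate 2 and 2 h, and 21 to 35 with 1 label left out. With the replicate block (labels as a term) 9 pairs and 31 bins were called. The labels did not pair the libraries by the correlation check. For G0 against 2 to 4 h by reads, the block had 20 called bins with DESeq2 (33.9%, against 31.1% of all bins), 4 with read totals (6.67%, against 4.48%), 11 with captured sites (18.3%, against 15.3%), 9 with 1-Mb bins (30%, against 23.3%), 0 to 14 with 1 label left out and 4 without 1 h replicate 2 and 2 h (6.67%, against 7.85%). For these results the causes were not tested. The omissions of 3 h and 4 h, which gave 9 pairs and 35 bins, and of 1 h replicate 2 with 2 h for the block values and stage tests were chosen after seeing the data. Depth limits the far baits, where a library holds as few as 8 captured sites of the block.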
